A study of Mus musculus with 40 samples.

Results

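Gene expression in fetal liver blood stem and progenitor cells was compared between fetuses carrying point mutations in the acetyltransferase domains of both KAT6A and KAT6B and wild-type (WT) fetuses. The comparison used 8 of the 40 libraries of the series, chosen by stage and genotype labels alone: 4 labelled *Kat6a* G656E/G656E, *Kat6b* G577E/G577E (double mutant) and 4 labelled WT at both genes, all from E14.5 fetuses. The cells were sorted by FACS as LSK cells, which lack lineage markers and carry SCA-1 and c-KIT, a fraction that holds hematopoietic stem cells and multipotent progenitors. The 4 libraries of a group came from separate fetuses according to the design text. The mutations were made by CRISPR in the germline, so every cell of a mutant fetus carried them and not the blood cells alone. Each replaces 1 glycine by glutamate in the acetyl-CoA binding part of the KAT domain and leaves the transcript whole. The other E14.5 libraries, 4 of *Kat6a* G656E/G656E with *Kat6b* WT (Kat6aE/E) and 4 of *Kat6b* G577E/G577E with *Kat6a* WT (Kat6bE/E), shared the fit, and 24 libraries of E9.5 embryos entered the comparison between stages and an added fit of all 40 libraries.

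KAT6A and KAT6B belong to the MYST family of lysine acetyltransferases, which acetylate histone H3 in complexes with BRPF proteins, ING5 and MEAF6. KAT6A is needed for the formation and upkeep of hematopoietic stem cells and for *Hox* gene expression, whereas KAT6B is best known from the nervous system. A change of these glycines blocks acetylation and keeps the protein, so the double mutant separates the enzymatic activity from the other functions of both proteins.

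The reference sequence around both mutated codons, taken from GRCm39, is shown because these positions define the genotype. Both lie on the plus strand, in exon 13 of *Kat6a* (chr8:23416459-23416461) and exon 12 of *Kat6b* (chr14:21687681-21687683), with exons and codons numbered along the Ensembl canonical transcripts of GENCODE. The capitals mark the glycine codon.
*Kat6a*, glycine codon: taccaacgtaagGGCtacggcaggttt
*Kat6b*, glycine codon: caccaaaggcaaGGAtttggacgcttt
The alleles themselves were not read in these data, because the files hold counts per gene. *Kat6a* was at 165, 181, 182 and 169 CPM (counts scaled to an equal library size, with the trimmed mean of M values, TMM, as scaling factor) in WT and 198, 172, 184 and 176 in the double mutant. *Kat6b* was at 38.6, 37.0, 36.1 and 30.7 CPM in WT and 39.98, 24.9, 40.8 and 28.5 in the double mutant. The groups overlapped for both genes, as a point mutation that leaves the transcript whole allows, so these levels do not check the labels.

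The libraries of the double mutant were not alike. Library totals were about 22225800 to 59216500 counts in WT and 12270400 to 26857300 in the double mutant. After all libraries were thinned to the smallest total of the 16 E14.5 libraries, 12270376 counts, genes with at least 1 count numbered 16055, 16377, 16066 and 16346 in WT and 16353, 12573, 13555 and 13424 in the double mutant. Replicate 1 of the double mutant therefore lay within the WT range and replicates 2 to 4 lay below it, as did replicate 2 of Kat6aE/E with 13650. The mean difference of -2234.75 genes did not pass a threshold of 0.05 (exact two-sided permutation p = 0.114, where the smallest possible is 0.0286). With at least 10 counts the difference was -202.25 genes (exact permutation p = 0.257). The log2 levels of replicate 1 correlated with the WT mean at 0.989, a description across genes, and those of replicates 2 to 4 at 0.920 to 0.944.

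**Figure D1:**
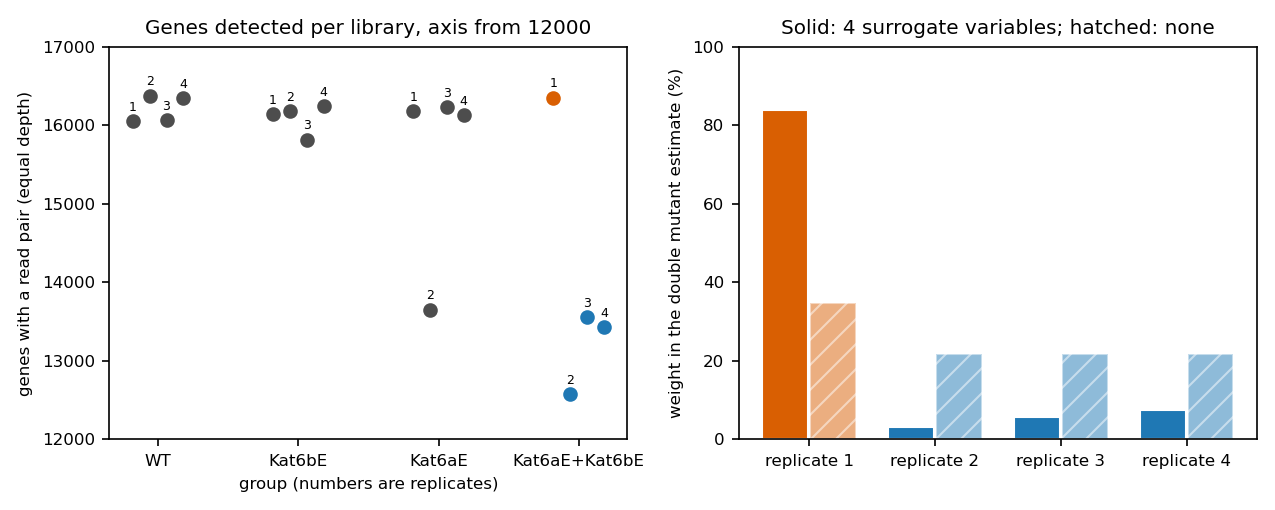
Left, number of genes with at least 1 count in each of the 16 E14.5 libraries after thinning to equal depth, by group with replicate numbers, on an axis that does not start at 0. Double mutant replicates 2 to 4 and Kat6aE/E replicate 2 sit between 12573 and 13650, and the other libraries at 15820 or above. Right, the share of each double mutant library in the double mutant side of the estimate, in percent, with 4 surrogate variables (solid bars) and with none (hatched bars). Replicate 1 carries 83.8% with surrogate variables and 34.7% without.

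The study's model removes 4 surrogate variables, which are patterns of variation estimated from the data, and treats litter as a random block. In that fit replicate 1 of the double mutant carried 83.8% of the double mutant side of the estimate, and replicates 2, 3 and 4 carried 2.98%, 5.72% and 7.47%. Without surrogate variables the shares were 34.7% for replicate 1 and 21.8% for each of the other libraries. With surrogate variables, the weights of WT replicates 1 to 4 were -15.2%, -20.5%, -21.9% and -42.4%. These weights come from the design and the litter correlation, and leave out the precision weights that the fit gives each count. Single mutant libraries also carried weights, from -11.1% (Kat6bE/E replicate 1) to 12.4% (Kat6bE/E replicate 4). A fitted log2 fold change in this comparison is therefore mainly replicate 1 against a WT mean in which WT replicate 4 weighs most. The levels of all libraries are given beside it. Replicate 1 came from litter 970, shared with Kat6bE/E replicate 1, and replicates 2 to 4 came from litter 1045. The WT libraries came from litters 753 and 1111. No litter held both WT and double mutant, so genotype, litter and the library quality of litter 1045 cannot be told apart. Both sexes occurred in each group. *Xist*, the RNA of the inactive X chromosome of female cells, was at 1403 CPM in WT replicate 3, at 873 and 953 in double mutant replicates 2 and 4, and under 2 CPM in the other libraries of these groups.

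The first question was which genes differed between the double mutant and WT. Among 13071 protein-coding genes tested with limma, 0 (0%) had a false discovery rate (FDR) under 0.05, with 896 at an unadjusted p under 0.05. Of these, 570 (4.36% of all genes tested) were lower and 326 (2.49%) higher in the double mutant. The smallest FDR was 0.0618, for *Cpa3*. DESeq2 and edgeR were run without the litter block, so littermates counted as independent libraries in their fits. DESeq2 with the same surrogate variables called 80 genes (0.612%), 61 lower and 19 higher. The edgeR quasi-likelihood test called 1 with the surrogate variables (*Cpa3*, 0.00765%) and 39 without them (0.298%), 22 lower and 17 higher. Replicate 1 alone against the 4 WT libraries gave 30 genes in limma (0.217%), on the assumption that it varied like the other groups. Without replicate 1, the remaining libraries gave 2170 (1573 lower, 597 higher), with the surrogate variables estimated anew. The same libraries without surrogate variables gave 128, in a setting added after seeing the data. The count thus varied with the double mutant libraries used and with the surrogate variables, and the cause was not tested. In these bulk samples, fewer cells of a type and less RNA per cell cannot be told apart.

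The 20 genes with the smallest p were 11 lower and 9 higher ones, and none of them passed the threshold. For 10 of them all 4 double mutant libraries lay beyond all 4 WT libraries: *Cpa3*, *Prtg*, *Pde2a*, *Slc7a8*, *Apoe*, *Fkbp9*, *Muc13* and *Dach1* below, and *Padi3* and *Id2* above. Over all 13071 genes, 392 (3%) lay fully below WT and 200 (1.53%) fully above. Among the 9309 genes with a mean of at least 10 CPM the shares were 2.06% and 1.64%. Of the 896 genes with an unadjusted p under 0.05 in limma, 198 lay fully beyond WT in the direction of their fold change. The 20 genes were ranked by p on the same libraries, which favours such separation, so it is not separate evidence. The other 10 leading genes overlapped with WT.

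*Cpa3* encodes carboxypeptidase A3, a protease stored in mast cell granules and expressed early in the myeloid progenitors that give rise to mast cells. It was at 33.0, 32.0, 34.4 and 43.1 CPM in WT and 16.2, 15.1, 25.7 and 18.97 in the double mutant. The highest double mutant library was below the lowest WT library. The log2 fold change was -1.24 (SE 0.18, FDR = 0.0618), and -1.11 without surrogate variables (FDR = 0.174). *Cpa3* passed the threshold in 8 of 17 other fits, more than any other gene. Kat6aE/E libraries lay at 16.1 to 23.8 CPM and Kat6bE/E libraries at 28.1 to 37.7.

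*Pde2a* encodes a phosphodiesterase that breaks down cyclic nucleotides and is activated by cyclic GMP. Its levels were 65.7, 59.9, 59.8 and 65.8 CPM in WT and 38.7, 36.5, 35.2 and 32.5 in the double mutant. The spread within each group was small against the gap, and replicate 1 did not stand apart from the other mutants. The log2 fold change was -0.73 (SE 0.14, FDR = 0.132) and passed the threshold in 6 of the 17 fits, including the one without surrogate variables (-0.83, FDR = 0.0403), where it was the single gene called. Kat6aE/E was at 41.3 to 50.2 CPM.

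*Muc13*, a transmembrane mucin, was at 57.5, 50.9, 53.8 and 46.7 CPM in WT and 33.3, 28.0, 38.0 and 27.4 in the double mutant (log2 fold change -0.63, SE 0.14, FDR = 0.224). *Apoe*, the lipid carrier apolipoprotein E, was at 254, 221, 183 and 233 CPM in WT and 108, 144, 131 and 160 in the double mutant (-0.996, SE 0.18, FDR = 0.132). Both were lower in all 4 mutants, replicate 1 included. *Slc7a8*, a transporter of large neutral amino acids, was at 20.6 to 22.6 CPM in WT and 11.5 to 19.2 in the double mutant. *Fkbp9*, a peptidyl-prolyl isomerase of the endoplasmic reticulum, was at 26.5 to 28.4 CPM against 12.02 to 19.6. *Dach1*, a transcriptional co-repressor, was at 7.49 to 11.1 CPM against 0 to 5.73. *Prtg*, which encodes protogenin, a transmembrane protein of the immunoglobulin superfamily expressed in the early embryo, was at 1.34, 1.53, 1.88 and 1.64 CPM in WT and at 0 in all 4 double mutant libraries. The WT mean of *Prtg* was 38.4-fold above a floor of 3 counts over the double mutant libraries (0.0417 CPM). That floor reflects depth alone, and replicates 2 to 4 had fewer genes detected at equal depth. The fold is therefore not a firm bound. The absence is a statement about detection in these libraries, and the FDR was 0.111.

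*Id2* and *Padi3* were higher in all 4 double mutant libraries. *Id2* encodes an inhibitor of basic helix-loop-helix transcription factors that acts in the choice between lymphoid and myeloid fates. It was at 15.2, 16.5, 20.2 and 20.05 CPM in WT and 32.7, 50.7, 31.1 and 32.9 in the double mutant. The mean was 18.0 ± 2.54 CPM (SD, n = 4) in WT and 36.8 ± 9.27 in the double mutant (log2 fold change 0.84, SE 0.17, FDR = 0.152, and 0.93 without surrogate variables). *Padi3*, a peptidylarginine deiminase, was at 1.55 to 2.53 CPM in WT and at 5.23, 5.23, 9.89 and 10.1 in the double mutant (1.84, SE 0.33, FDR = 0.124). Both genes lay between WT and the double mutant in most Kat6aE/E libraries, at 23.97 to 26.9 CPM for *Id2* and 2.68 to 6.56 for *Padi3*.

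In the other leading genes the double mutant libraries disagreed. *Cenpv*, a centromere protein, was at 11.7 CPM in replicate 1 and 23.6 to 35.8 in replicates 2 to 4, against 21.4 to 40.8 in WT. *Dglucy*, the D-glutamate cyclase, was at 18.7 and 13.98 CPM in replicates 1 and 2 and at 5.20 and 5.94 in replicates 3 and 4, against 5.99 to 11.4 in WT. Replicate 1 lay outside the WT range for both genes. The other libraries did not follow it for *Cenpv*. For *Dglucy*, replicate 2 was also above the WT range, and replicates 3 and 4 were not. *Celsr1*, a cadherin of planar cell polarity, was at 28.9 CPM in replicate 1 and 7.84 to 14.7 in the others, against 11.4 to 17.9 in WT, so its fitted value (0.80, SE 0.16) describes replicate 1. *Bmp2*, a growth factor, was at 0 in replicates 1 to 3 and at 6.67 CPM in replicate 4, against 0.629 to 1.35 in WT. *Fgf13*, a fibroblast growth factor homolog that binds sodium channels, was at 0.593, 1.57, 0 and 4.38 CPM, against 2.53 to 5.04 in WT. *Espnl*, *Krt80*, *Kbtbd11*, *Irf5* and *Il12rb1* had their highest level in replicate 1 or 2 and overlapped with WT.

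**Figure D2:**
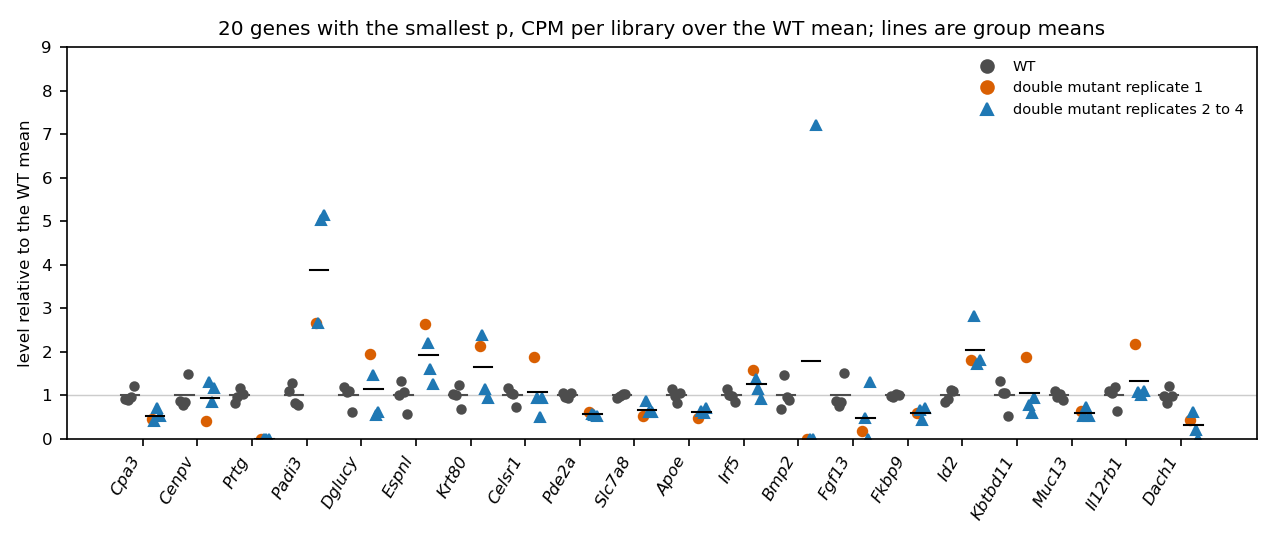
Level of the 20 genes with the smallest p in the 4 WT and 4 double mutant libraries, each divided by the WT mean of the gene (linear axis), with group means as lines. Double mutant replicate 1 (orange) and replicates 2 to 4 (blue triangles) lie together below 1 for *Cpa3*, *Pde2a*, *Muc13* and *Apoe* and above 1 for *Id2* and *Padi3*, and lie apart for *Cenpv*, *Celsr1* and *Bmp2*.

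A fit of all 40 libraries, chosen after seeing the data, gave 140 of 15123 genes called between the double mutant and WT at E14.5 (0.926%), 80 lower (0.529%) and 60 higher (0.397%). In that fit *Cpa3* (FDR = 0.000651), *Pde2a* (0.00121), *Apoe* (0.00121), *Id2* (0.00285), *Muc13* (0.00772) and *Padi3* (0.000651) passed the threshold. *Prtg* did not (0.301). The added libraries are E9.5 embryos, whose spread then enters the estimate for the sorted cells. Without surrogate variables the 40-library fit called 770 genes.

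Stem cell transcription factors were examined next, as a list of 24 genes, all tested. None was called by limma, 1 was lower and 1 higher at an unadjusted p under 0.05, and the median log2 fold change was -0.07, against -0.03 over all genes. *Gata2*, which maintains stem cells and drives mast cell and basophil fates, was at 114, 106, 105 and 99.0 CPM in WT and 77.1, 73.2, 52.6 and 87.4 in the double mutant. All 4 mutants lay below WT (log2 fold change -0.50, SE 0.12, FDR = 0.256, and -0.50 without surrogate variables). DESeq2 called *Gata2*, as did the fit of all 40 libraries (FDR = 0.00333). Without surrogate variables the median of the list was -0.39, against -0.04 over all genes, and its summed level was 2858 to 3436 CPM in WT and 2465 to 3161 in the double mutant.

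*Hox* genes are the targets through which KAT6A is best known. Of 17 *Hox* genes expressed in blood progenitors, 12 passed the filter on low counts. None was called by limma, and 1, *Hoxb4*, had an unadjusted p under 0.05. The median log2 fold change was -0.11, and -0.986 without surrogate variables, where 1 of the 12 genes was above 0. *Hoxb4*, which promotes the expansion of stem cells when supplied in excess, was at 4.57, 4.92, 3.88 and 2.70 CPM in WT and 5.39, 8.63, 7.67 and 4.42 in the double mutant (log2 fold change 0.75, SE 0.29, FDR = 0.649). *Hoxa3* was at 4.38 to 8.21 CPM in WT and 4.91, 4.09, 0.597 and 2.64 in the double mutant (-0.53, SE 0.30, FDR = 0.782). The summed level of the list was 81.4 CPM in replicate 1 and 28.2 to 47.5 in replicates 2 to 4, against 96.0 to 112 in WT replicates 1 to 3 and 50.9 in WT replicate 4. In these 2 groups the low sums were those of the libraries with fewer genes detected and of WT replicate 4, which had a high level of erythroid genes. Kat6bE/E replicates 2 and 3 had *Hox* sums of 44.0 and 48.6 CPM, against 75.4 and 89.2 in replicates 1 and 4. Those 2 libraries had 16183 and 15820 genes detected, and their erythroid genes summed to 6663 and 6113 CPM. The part of gene detection or of erythroid RNA in the *Hox* sums was not tested.

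The genes of mast cells and basophils had a median log2 fold change of -0.51 over 12 genes tested of 18, the lowest of the 25 lists with surrogate variables. Without them it was -0.74, and that of the *Hox* genes was lower. None was called by limma, 3 were lower and 0 higher at an unadjusted p under 0.05 (4.36% and 2.49% of all genes tested), and 5 lay below WT in all 4 double mutant libraries (3% of all genes tested). These were *Cpa3*, *Gata2*, *Gzmb*, *Cma1* and *Tpsb2*. *Gzmb*, *Cma1* and *Tpsb2* encode proteases of cytotoxic and mast cell granules. They were under 1 CPM in every WT library and at 0 in double mutant replicates 2 to 4, so their order rests on few counts. *Hdc*, the histamine-forming enzyme, was at 49.2 to 113 CPM in WT and 53.2 to 117 in the double mutant, and *Il1rl1*, the receptor for interleukin 33, at 11.9 to 26.8 and 15.7 to 24.9. The list sum therefore overlapped, at 215 to 304 CPM in WT and 178 to 264 in the double mutant. *Cpa3* and *Gata2* were the members at 10 CPM or more that were lower in all mutants.

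Of 27 lymphoid progenitor genes tested, 8 lay below WT in all 4 double mutant libraries and 0 above (3% and 1.53% of all genes tested). Genes fully below WT were 2.06% of those with a mean of at least 10 CPM, so their share was larger at lower levels. Several of the 8 were at or near 0 in some of replicates 2 to 4. None was called by limma, and 7 were lower and 2 higher at an unadjusted p under 0.05 (4.36% and 2.49% of all genes tested). *Rag1*, a subunit of the recombinase that assembles antigen receptor genes, was at 50.0, 41.1, 39.2 and 67.9 CPM in WT and 25.7, 19.8, 3.41 and 8.30 in the double mutant. Its log2 fold change was -1.40 (SE 0.37, FDR = 0.387), and -2.05 without surrogate variables. It passed the threshold in DESeq2, in limma with 6 surrogate variables (22 genes, 0.168%) and in the fit of all 40 libraries (FDR = 0.00285). Kat6aE/E libraries were at 13.5 to 31.6 CPM of *Rag1*, and Kat6bE/E libraries at 42.8 to 48.3.

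*Ebf1* and *Pax5*, the transcription factors that establish B cell identity, were low in the double mutant. *Ebf1* was at 11.3, 10.01, 8.15 and 17.0 CPM in WT and 4.42, 0, 1.45 and 0 in the double mutant (log2 fold change -2.39, SE 0.89, FDR = 0.633). *Pax5* was at 22.5, 17.4, 12.6 and 37.1 CPM in WT and 6.96, 3.02, 0 and 0.0388 in the double mutant (-2.25, SE 1.20, FDR = 0.771). Replicate 1, whose number of detected genes was that of WT, was below all WT libraries for both. *Cd79a*, a signalling subunit of the B cell receptor, was at 6.42 to 21.6 CPM in WT and at 3.18 in replicate 1 and 0 to 0.0388 in the others. *Igll1*, a part of the surrogate light chain, was at 5.69 to 22.5 CPM in WT and 0 to 2.32 in the double mutant. Limma with 6 surrogate variables called *Ebf1*, *Pax5*, *Cd79a* and *Igll1* lower. DESeq2 called *Ebf1* and *Igll1*, and edgeR without surrogate variables called *Igll1*. None of them was called in the fit of all 40 libraries. *Vpreb3* and *Cd79b* were also below WT in all mutants. For *Cd79b* the distance was short, 35.2 to 43.2 CPM against 22.1 to 34.5.

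Other early lymphoid genes did not follow. *Tcf7*, a T cell transcription factor, was at 27.0, 15.5, 17.6 and 8.69 CPM in the double mutant and 11.9 to 16.1 in WT. *Notch1*, the receptor that commits cells to the T lineage, was at 286 CPM in replicate 1 and 113 to 115 in the others, against 148 to 246 in WT. The sign of *Notch1* therefore depended on the model (log2 fold change 0.38, and -0.29 without surrogate variables). *Flt3*, the cytokine receptor of multipotent and lymphoid progenitors, was at 317 CPM in replicate 1 and 117 to 151 in the others, against 137 to 317 in WT. The summed level of the list, 1703 to 2495 CPM in the double mutant and 2178 to 2596 in WT, is carried by the abundant members and overlapped.

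Megakaryocyte and platelet genes were the list whose sums did not overlap, at 1055, 1029, 947 and 921 CPM in WT and 873, 892, 713 and 790 in the double mutant. Of 23 genes tested, 0 were called by limma. At an unadjusted p under 0.05, 6 were lower and 0 higher (4.36% and 2.49% of all genes tested). The median log2 fold change was -0.37 (-0.34 without surrogate variables). *Rab27b*, a small GTPase of platelet granule release, was at 7.42 to 11.4 CPM in WT and 2.13 to 7.24 in the double mutant (-1.11, SE 0.33, FDR = 0.430). It was the only member with all mutants below WT (3% of all genes tested were). *Itga2b*, the platelet integrin subunit CD41, was at 42.9, 48.3, 38.5 and 69.5 CPM in WT and 26.7, 64.0, 23.8 and 42.7 in the double mutant (-1.02, SE 0.23, FDR = 0.251). Replicate 2 reached the WT range. Both genes passed in the fit of all 40 libraries (FDR = 0.0261 and 0.0364).

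**Figure D3:**
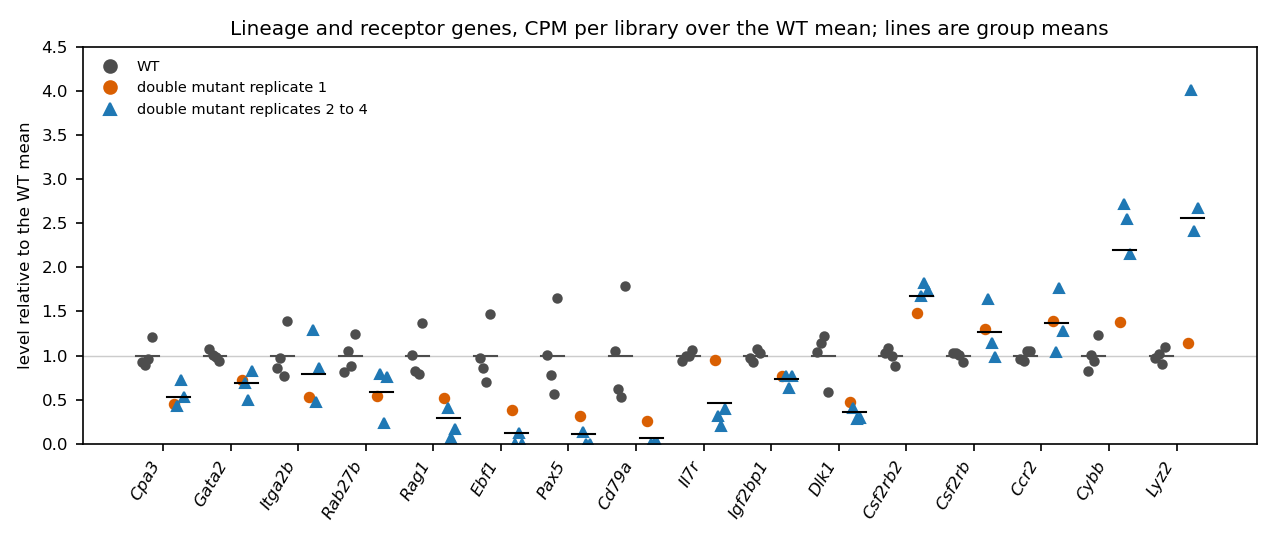
Level of lineage, fetal program and receptor genes in the 4 WT and 4 double mutant libraries, each divided by the WT mean of the gene (linear axis), with group means as lines. *Rag1*, *Ebf1*, *Pax5* and *Cd79a* lie below 1 in all double mutant libraries, at or near 0 in some of them. *Csf2rb2* lies above 1 in all of them, and for *Cybb* and *Lyz2* replicate 1 (orange) is nearest to WT.

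Cytokine receptors receive the signals that direct progenitor growth, and all 40 genes of this list were tested. None was called by limma, 0 were lower and 6 higher at an unadjusted p under 0.05 (2.49% of all genes tested were higher at this level), and the median log2 fold change was 0.09. Without surrogate variables the median was -0.10, so the list as a whole had no stable direction. *Csf2rb2*, a beta subunit of the interleukin 3 receptor, was at 13.2, 13.98, 12.8 and 11.3 CPM in WT and 19.04, 21.5, 23.4 and 22.3 in the double mutant (0.74, SE 0.17, FDR = 0.251, and 0.81 without surrogate variables). Its groups did not overlap. It was called higher by edgeR without surrogate variables, and not in the fit of all 40 libraries (FDR = 0.139). *Csf2rb*, the common beta subunit of the receptors for interleukin 3, interleukin 5 and GM-CSF, was at 87.1 to 96.8 CPM in WT and 121, 153, 107 and 92.3 in the double mutant (0.40, SE 0.09, FDR = 0.261). The 2 genes are near-identical paralogs, so the split of reads between them is uncertain.

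The other members with a higher level at an unadjusted p under 0.05 were *Il12rb1*, *Ccr2*, *Csf1r* and *Il6ra*. *Il12rb1*, a subunit of the receptors for interleukins 12 and 23, was at 10.3 CPM in replicate 1 and 4.77 to 5.16 in the others, against 3.05 to 5.62 in WT. DESeq2 and the fit of all 40 libraries (FDR = 0.00339) called *Il12rb1* higher. *Ccr2*, a chemokine receptor of monocytes, was at 25.5 to 28.4 CPM in WT and 37.7, 28.1, 47.9 and 34.6 in the double mutant. *Csf1r*, the receptor for the macrophage growth factor CSF1, was at 106 to 122 CPM in WT and 116 to 137 in the double mutant. *Il6ra*, the interleukin 6 receptor, exceeded the WT range of 45.9 to 60.3 CPM in replicate 1 alone, at 66.5. *Socs2*, a feedback inhibitor of JAK-STAT signalling, was at 7.89 to 9.79 CPM in WT and 14.1, 7.43, 11.5 and 15.8 in the double mutant (0.66, SE 0.17, FDR = 0.309). It was the 1 member of 20 in that list with a higher level at an unadjusted p under 0.05. DESeq2 and the fit of all 40 libraries (FDR = 0.0251) called *Socs2* higher.

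Among 17 myeloid transcription factors tested, 0 were called by limma. At an unadjusted p under 0.05, 3 were higher and 0 lower (2.49% and 4.36% of all genes tested). The 3 higher genes were *Id2*, described above, *Irf5* and *Irf8*. *Irf5*, which acts downstream of Toll-like receptors, was at 33.6, 29.9, 29.0 and 25.2 CPM in WT and 46.4, 40.8, 33.7 and 27.1 in the double mutant (0.63, SE 0.13, FDR = 0.132). DESeq2 called *Id2* and *Irf5* higher, and the fit of all 40 libraries also called *Irf5* (FDR = 0.00121). *Irf8*, which drives monocyte and dendritic cell fates, was at 150 CPM in replicate 1 and 66.6 to 75.7 in the others, against 94.3 to 114 in WT. *Spi1*, which encodes PU.1, was at 160 to 204 CPM in WT and 161, 116, 149 and 137 in the double mutant.

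Of 21 granule genes tested, 2 were higher and 0 lower at an unadjusted p under 0.05, and of 6 NADPH oxidase genes 2 and 0, with 0 called by limma. Over all genes tested, 2.49% were higher and 4.36% lower at this level. The sums of both lists overlapped, at 5335 to 8375 CPM in WT and 5584 to 7641 in the double mutant for granule genes and 811 to 993 and 862 to 982 for oxidase genes. *Lyz2*, lysozyme of monocytes and granulocytes, was at 124, 130, 116 and 140 CPM in WT and 146, 511, 308 and 340 in the double mutant. *Cybb*, the catalytic subunit of the phagocyte NADPH oxidase, was at 21.0, 25.7, 24.04 and 31.7 CPM in WT and 35.3, 69.7, 65.4 and 55.1 in the double mutant. In both genes all mutants exceeded WT, replicate 1 by little. The log2 fold changes were 0.41 (SE 0.12, FDR = 0.423) for *Lyz2* and 0.51 (SE 0.16, FDR = 0.484) for *Cybb*, and 1.10 and 0.94 without surrogate variables. Both were called higher by edgeR without surrogate variables and in the fit of all 40 libraries (FDR = 0.0167 and 0.0316). The secondary granule genes *Lcn2*, *Ltf* and *Ngp*, which mark maturing neutrophils, were at 12.1, 26.1 and 22.7 CPM in replicate 1. In replicates 2 to 4 they reached 68.5 to 79.9, 127 to 244 and 155 to 272 CPM, against at most 12.4, 27.9 and 29.9 in WT. Of these, *Lcn2* was called higher by edgeR without surrogate variables. *Mpo*, the most abundant primary granule gene, went the other way, at 3487 to 5120 CPM in WT and 2483 to 3449 in the double mutant.

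Other immune lists held no called gene in the limma fit of the E14.5 libraries. Of 30 innate sensing genes tested, 1 (*Cd14*) lay below WT in all mutants (3% of all genes tested did). At an unadjusted p under 0.05, 4 were higher and 0 lower (2.49% and 4.36% of all genes tested). *Clec7a*, the beta-glucan receptor, was at 9.42 to 14.4 CPM in WT and 17.7 to 39.8 in the double mutant. *Cd300lf*, an inhibitory receptor of myeloid cells, was at 2.12 to 3.07 CPM against 3.67 to 8.38. These were the 2 members above WT in all mutants (1.53% of all genes tested were). *Tlr9*, the sensor of unmethylated DNA, was at 1.73 to 3.86 CPM in WT and 5.23, 1.20, 5.71 and 5.04 in the double mutant.

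Of 41 interferon-induced genes tested, 1 was lower and 2 higher at an unadjusted p under 0.05 (4.36% and 2.49% of all genes tested), and the median was 0.01. *Aim2*, a sensor of cytosolic DNA, was at 49.7 CPM in replicate 1 and 21.7 to 27.8 in the others, against 29.8 to 40.8 in WT, so replicate 1 and replicates 2 to 4 lay on opposite sides of WT. The fit of all 40 libraries called *Aim2* higher (FDR = 0.0481). *H2-Ab1*, an MHC class II gene, was at 5.24, 6.13, 5.08 and 5.44 CPM in WT and 2.00, 0, 0 and 1.16 in the double mutant (log2 fold change -2.08, SE 0.59, FDR = 0.383), and DESeq2 called it lower. *H2-K1*, an MHC class I gene, was at 125 to 174 CPM in WT and 84.7 to 133 in the double mutant (-0.20, SE 0.13, FDR = 0.809).

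Genes of the fetal program distinguish fetal from adult stem cells. Of 16 tested, 0 were called by limma, 2 were lower and 1 higher at an unadjusted p under 0.05 (4.36% and 2.49% of all genes tested). *Igf2bp1*, an RNA-binding protein of the fetal LIN28B program, was at 162, 153, 178 and 172 CPM in WT and 128, 129, 106 and 128 in the double mutant. All mutants lay below WT and replicate 1 was level with the others (log2 fold change -0.45, SE 0.12, FDR = 0.361, and -0.47 without surrogate variables). *Dlk1*, an imprinted gene for a NOTCH-related transmembrane protein that fetal liver stroma and progenitors express, was at 90.5, 98.8, 106 and 51.2 CPM in WT and 40.6, 34.8, 24.2 and 25.6 in the double mutant (-0.94, SE 0.26, FDR = 0.412). Both passed in the fit of all 40 libraries (FDR = 0.0190 and 0.0481), and DESeq2 called *Dlk1*.

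LSK identity was checked against the sort markers. *Kit* was at 443 to 541 CPM in WT and 529, 351, 383 and 357 in the double mutant, and *Cd34* at 395 to 794 and 379 to 714. *Ly6a*, which encodes SCA-1, was low in all libraries, at 1.26 to 5.31 CPM in WT and 0.937 to 3.83 in the double mutant, although the sort selected for the protein. Of 11 LSK surface markers, 0 had an unadjusted p under 0.05 in limma. Their median log2 fold change was 0.13 with surrogate variables and -0.26 without, and the sums were 1212 to 2102 CPM in WT and 1061 to 1933 in the double mutant.

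Markers of other cell types moved with the libraries. The 28 erythroid genes summed to 1792, 2140 and 2046 CPM in WT replicates 1 to 3 and 5220 in WT replicate 4. They summed to 2118 CPM in double mutant replicate 1 and 7068, 6442 and 6723 in replicates 2 to 4. The same genes reached 5752 CPM in Kat6aE/E replicate 2 and 6663 in Kat6bE/E replicate 2, and the second of these had 16183 genes detected. *Gata1*, the erythroid and megakaryocyte transcription factor, was at 47.6 CPM in double mutant replicate 1 and 111 to 147 in the others, against 41.1 to 50.4 in WT replicates 1 to 3 and 120 in WT replicate 4. *Hba-a1*, an adult alpha globin, was at 356 CPM in double mutant replicate 1 and 2607 to 4724 in the others, against 269 to 1167 in WT. Of 27 erythroid genes tested, 0 had a log2 fold change above 0 with surrogate variables and 26 without. None was called by limma in either fit, and 2 were lower at an unadjusted p under 0.05 in the first (4.36% of all genes tested). In that first fit, WT replicate 4 and double mutant replicate 1 had the largest weights of their groups.

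The part of erythroid RNA in the other differences was not tested. Macrophage markers summed to 274 to 370 CPM in WT and to 270 in replicate 1 and 394 to 420 in replicates 2 to 4. Among them *Clec4f*, a Kupffer cell lectin, was at 1.38 to 2.51 CPM in WT and at 0.216 in replicate 1 and 0 in the others. Hepatocyte markers summed to 134 to 305 CPM in WT and 132 to 363 in the double mutant, with *Alb* at 23.5 to 70.8 and 14.7 to 101. Endothelial and stromal markers summed to 312 to 518 CPM in WT and 273 to 403 in the double mutant.

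Of 32 cell division genes, 0 were called by limma. At an unadjusted p under 0.05, 4 were lower and 1 higher (4.36% and 2.49% of all genes tested). The sums of the list were 9575 to 10339 CPM in WT and 9387 to 10421 in the double mutant. *Ccnd3*, the D-type cyclin most used by blood cells, was at 189 to 221 CPM in WT and 162, 234, 211 and 204 in the double mutant. Of 6 cyclin-dependent kinase inhibitors and 17 p53 target genes tested, 0 were at an unadjusted p under 0.05 in limma. *Cdkn2c*, an inhibitor of CDK4 and CDK6, was nonetheless at 28.8, 17.0 and 14.05 CPM in replicates 2 to 4 and 7.23 in replicate 1, against 3.77 to 8.72 in WT. Of 28 immediate early and stress genes tested, 3 were lower at an unadjusted p under 0.05, among them *Junb*, at 24.5 CPM in replicate 1 and 30.9 to 39.8 in the others, against 30.0 to 38.2 in WT.

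The 11 genes of the KAT6A and KAT6B complexes and the other MYST acetyltransferases were at like levels in both groups. Their sums were 954 to 977 CPM in WT and 941 to 1001 in the double mutant, none lay fully above or below WT, and 0 had an unadjusted p under 0.05 in limma. *Brd1*, the scaffold also named BRPF2, had the smallest p, at 128 to 148 CPM in WT and 123 to 163 in the double mutant (log2 fold change 0.21, SE 0.10, FDR = 0.726).

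**Figure D4:**
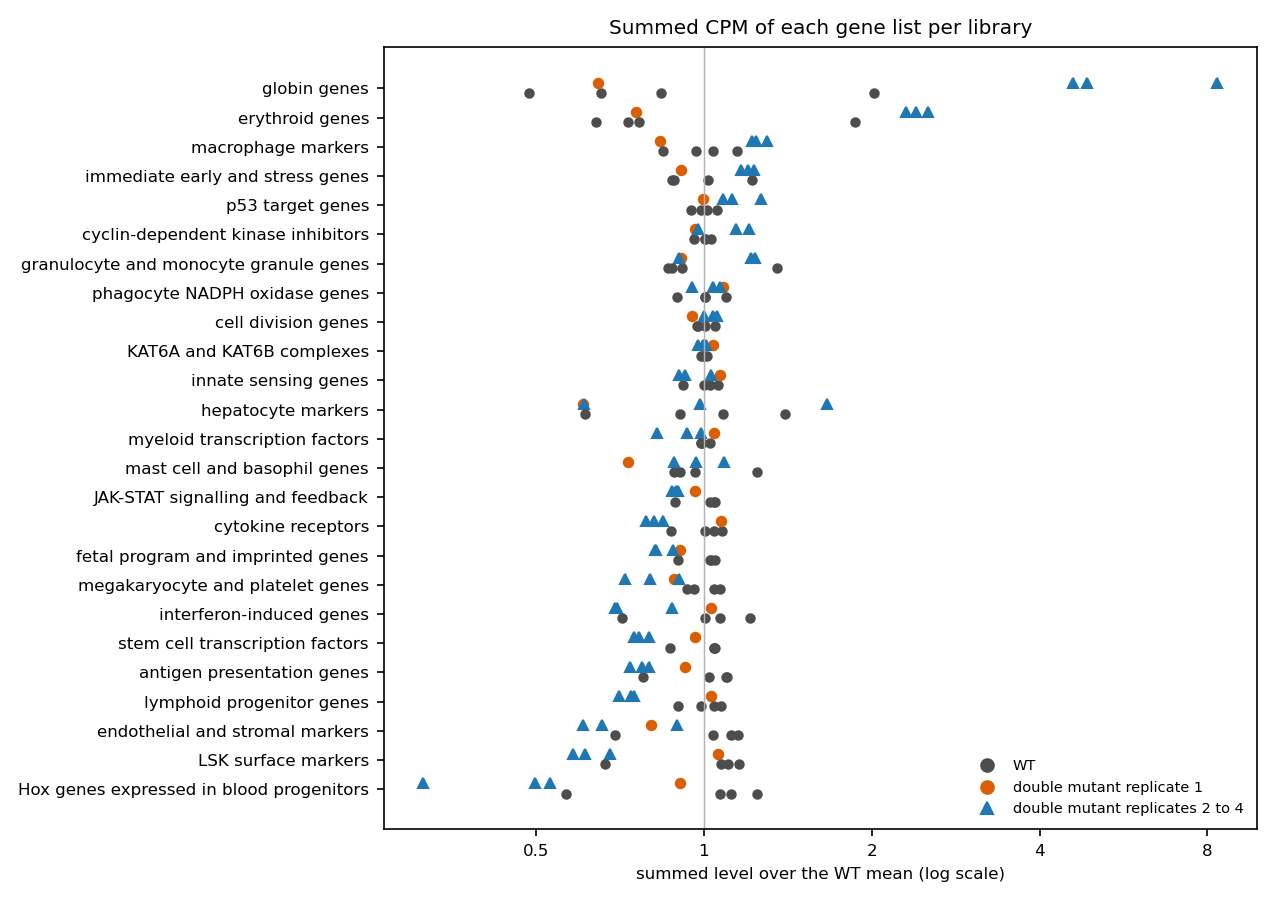
Summed CPM of each of the 25 gene lists in the 4 WT and 4 double mutant libraries, divided by the WT mean of the list, on a logarithmic axis, ordered by the mean of the double mutant. Double mutant replicate 1 (orange) stays near WT in most lists, whereas replicates 2 to 4 (blue triangles) are high for globin and erythroid genes and low for *Hox* genes, LSK surface markers and stem cell transcription factors. WT replicate 4 is the WT library with the high erythroid and globin sums.

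Double mutant replicate 1 and Kat6bE/E replicate 1 came from the same litter and had 16353 and 16144 genes detected. They are 1 library each and differed in sex as well as in *Kat6a* (*Xist* at 0.38 and 1581 CPM), so their values are a description with no test. The genes given are a selection from the comparison with WT, in which replicate 1 carried most of the double mutant side. Their direction here is therefore not separate evidence. Between them, the double mutant against the Kat6bE/E littermate, *Cpa3* was at 16.2 and 37.7 CPM, *Pde2a* at 38.7 and 52.1 and *Muc13* at 33.3 and 53.4. Lineage genes differed in the same sense, with *Gata2* at 77.1 and 108 CPM, *Rag1* at 25.7 and 45.9, *Pax5* at 6.96 and 19.1 and *Dlk1* at 40.6 and 67.3. Genes higher in the double mutant included *Id2* at 32.7 and 14.53 CPM, *Csf2rb2* at 19.04 and 10.8 and *Lyz2* at 146 and 103. The erythroid sums of the 2 libraries were 2118 and 3750 CPM.

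The second question was whether the double mutant differed from the Kat6aE/E single mutant. Of 13071 genes, 0 (0%) were called by limma, DESeq2 or the edgeR quasi-likelihood test, with 197 (1.51%) at an unadjusted p under 0.05 in limma. Without double mutant replicate 1 the count was 1998. The genes with the smallest p included *Bmp2*, *Rhbdl3*, *Spi1* and *Clgn*. *Spi1* was at 152 to 215 CPM in Kat6aE/E and 116 to 161 in the double mutant (log2 fold change -0.32, SE 0.09). *Rhbdl3*, a rhomboid-like protease gene, was at 0.452 to 1.14 CPM and 0 to 0.0539, and *Bmp2* and *Clgn* were under 2 CPM in these 8 libraries apart from *Bmp2* in double mutant replicate 4. Against WT, 178 genes (1.36%) were called in Kat6aE/E with the same WT libraries, so the 2 comparisons are not independent. For *Cpa3* the log2 fold changes were -1.04 (Kat6aE/E) and -1.24 (double mutant), for *Rag1* -1.46 and -1.40, for *Gata2* -0.57 and -0.50, for *Id2* 0.45 and 0.84 and for *Csf2rb2* 0.62 and 0.74.

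The third question was whether the double mutant departed from the sum of the changes of both single mutants. The limma contrast called 0 of 13071 genes (0%), the smallest FDR was 0.891, and 652 genes had an unadjusted p under 0.05. DESeq2 and edgeR also called 0. Without double mutant replicate 1 there were 1436. The smallest p values were those of *Rhbdl3*, *Abcf1*, *Klc3*, *Zcchc17* and *Zfp958*. *Abcf1*, a translation factor of the ABC family, was at 323 to 344 CPM in WT, 302 to 342 in Kat6aE/E, 355 to 432 in Kat6bE/E and 276 to 379 in the double mutant (departure -0.33, SE 0.08). *Zfp958*, a zinc finger gene, was at 17.7 to 22.0 CPM in WT, 16.8 to 19.7 in Kat6aE/E, 14.4 to 18.1 in Kat6bE/E and 18.1 to 25.1 in the double mutant (0.64, SE 0.17). No departure passed the threshold.

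The last question was whether the double mutant effect in LSK cells differed from that in whole E9.5 embryos, where the same genotype was sequenced. The difference of the effects was tested in a fit of all 40 libraries, and 1 of 15123 genes was called (0.00661%), with 1209 at an unadjusted p under 0.05. The same fit called 140 genes between the double mutant and WT at E14.5 and 0 at E9.5 (1100 at an unadjusted p under 0.05). The paper fitted the E9.5 samples separately and reported called genes for this genotype. The low count for the difference therefore does not show that the effects are alike. *Fkbp9* was at 25.8 to 27.5 CPM in E14.5 WT and 11.6 to 18.9 in the E14.5 double mutant, on the scale of this fit. At E9.5 it was at 172 to 190 CPM in WT and 190 to 204 in the double mutant. The log2 fold changes were -0.86 at E14.5 and 0.09 at E9.5, a difference of -0.95 (SE 0.16, FDR = 0.0106). Without E14.5 WT replicate 4 the FDR was 0.0666 and no gene was called, and without E14.5 double mutant replicate 1 the count was 1597.

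The next 4 genes were *Eps8*, *Ryk*, *Bmp2* and *Pde2a*, each with FDR = 0.0720. *Pde2a* was at 58.0 to 63.8 CPM in WT and 31.3 to 37.4 in the double mutant at E14.5, and at 26.0 to 30.9 and 25.9 to 36.4 at E9.5. The lower level of *Pde2a* was thus seen in the sorted cells, and the difference between stages did not pass the threshold. *Eps8* and *Ryk* overlapped between genotypes at both stages. Tissue, stage and preparation differ together between these experiments and cannot be told apart.

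**Figure D5:**
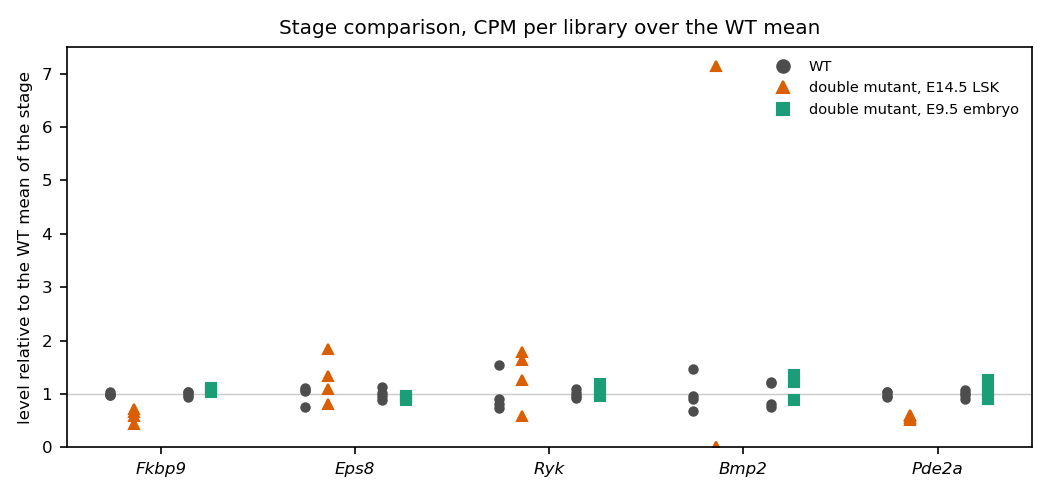
Level of the 5 genes with the smallest p for a difference between stages, in WT (grey) and double mutant libraries of E14.5 LSK cells (orange triangles) and E9.5 embryos (green squares), divided by the WT mean of the same stage (linear axis). *Fkbp9* and *Pde2a* lie below 1 in all 4 double mutant E14.5 libraries and near 1 in the E9.5 double mutant. *Bmp2* has 3 of the 4 E14.5 double mutant libraries at 0 and 1 above 7.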

How the data were processed

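Per the labels, fetal liver LSK cells were sorted by FACS and their RNA was sequenced as read pairs with no strand mark. The study's methods describe RNA from fetal liver cells without naming a sort and give another RNA input, so the sort rests on the labels and the study's results text. The authors aligned the reads to mm39 with Rsubread and deposited featureCounts counts per gene, 1 file per library and raw. The files held 26411 genes, of which 26359 matched the RefSeq table, and the unmatched ones held at most 1.26% of a library's counts. Here, 13071 protein-coding genes without Y-linked genes passed filterByExpr and were fitted with the study's model, on a set of genes that differs in size from the study's, over the 16 E14.5 libraries, with TMM scaling, limma voomLmFit, 4 surrogate variables (wsva), litter as a random block (correlation 0.331) and robust empirical Bayes. P-values were adjusted by Benjamini-Hochberg over all genes tested, and an FDR under 0.05 was called. Genes detected were compared by an exact permutation test after thinning (seed 1). Tools were R 4.3.3, limma 3.58.1, edgeR 4.0.16 and DESeq2 1.42.0. Scripts were tested on simulated counts. With 4 surrogate variables and 13071 genes in the simulated comparison with WT, 48 of 50 genes lowered by a log2 fold change of -1 were called. The simulated libraries had no litter correlation, and only genes with a mean of at least 10 CPM were changed. The simulation checks the scripts and does not give the power in these data.

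The members, the 25 gene lists and the rule for named genes were chosen with earlier results of these data known. The rule named *Kat6a* and *Kat6b*, the 20 genes with the smallest p where fewer than 10 were called, the 5 with the smallest p in each other comparison, and members of each list by smallest p. Other genes, such as *Pax5*, *Cd79a*, *Mpo*, *Kit* and *Gata1*, were named after their values were seen. Some genes that met the rule are not reported here. Counts of near-identical paralogs, such as globins, and of overlapping genes are uncertain. The total per library, about 12270400 to 59216500, limits the precision of genes at a few CPM. Alternatives were other numbers of surrogate variables, edgeR, DESeq2, other filters, covariates, sample weights, thinning and leaving out each library.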

Additional observations from a re-analysis of the deposited data

Results flagged for a closer look

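A library was set apart when its gap to the nearest library of its group of 4 was large against the range of the group (Dixon's test), which chance alone does in about 1 in 20 groups. Of 214 groups of gene or list levels tested, and among the library measures, the following stood apart. WT replicate 4 had the highest total, 59200000 counts. Double mutant replicate 1 carried 83.8% of the double mutant side of the estimate.

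In double mutant replicate 1, *Flt3* at 317 CPM, *Notch1* at 286, *Il12rb1* at 10.3, *Clec4f* and *Klc3* at 0.216 each, and *Gzmb* and *Rhbdl3* at 0.0539 each were above the other 3 libraries of the group. *Lcn2* at 12.1 CPM and *Zfpm1*, a cofactor of GATA1, at 183 were below them. *Clec4f*, *Klc3*, *Gzmb* and *Rhbdl3* were at 0 in the other libraries of the group, so a few counts were enough to set replicate 1 apart. The summed level of lymphoid progenitor genes in replicate 1 was high, at 2490 CPM, and that of erythroid genes low, at 2120. Replicate 2 stood apart for *Id2* at 50.7 CPM, *Tlr9* at 1.2 and *Clgn* at 1.39, replicate 3 for *Igf2bp1* at 106 and replicate 4 for *Bmp2* at 6.67.

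In WT replicate 4, which came from a litter of its own, *Cenpv* at 40.8 CPM, *Fgf13* at 5.04, *Car1*, an erythroid carbonic anhydrase, at 18.3 and *Zfpm1* at 369 were high. Its summed levels were 5220 CPM for erythroid genes and 8370 for granule genes, both high, and 1210 for LSK surface markers, 2860 for stem cell transcription factors, 1640 for JAK-STAT genes and 2410 for the fetal program, all low. In WT replicate 1 the sum of myeloid transcription factors was high, at 895 CPM.

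For *Fkbp9* the double mutant effect differed between LSK cells and E9.5 embryos by a test of the difference itself (log2 difference -0.95, limma FDR = 0.0106), and this call was lost without E14.5 WT replicate 4.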

How the results depend on the processing

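The number of genes called between the double mutant and WT depended on the processing, and the cause was not tested. Against 0 in the reported fit it was 1 with 0 surrogate variables, 2 with 2, 22 with 6, 1 with edgeR and the surrogate variables, 39 with edgeR without them, 80 with DESeq2, 2 with *Xist* as a covariate, 4 with thinned libraries and 30 with replicate 1 alone. Among settings added after seeing the data, it was 140 with all 40 libraries, 770 with these and no surrogate variables, and 128 with double mutant replicates 2 to 4 alone and no surrogate variables. Leaving out 1 library gave 0 to 2170 genes, with 2170 without double mutant replicate 1, 17 without replicate 2, 2 without replicate 3, 6 without replicate 4, 13 without Kat6aE/E replicate 2 and 1 without Kat6bE/E replicate 1, the single mutant libraries being left out in turn only after the data had been seen. Against Kat6aE/E the range was 0 to 1998 and for the departure from the sum 0 to 1436, both highest without double mutant replicate 1, and the other settings gave 0. The stage difference gave 51 genes with 0 surrogate variables, 11 without the litter block, 29 with genes that passed the filter at both stages, and 0 to 1597 on leaving out 1 library, with 47, 4 and 18 without double mutant replicates 2, 3 and 4. The difference in genes detected was -3027 to -1767 on leaving out 1 library, and without double mutant replicate 1 it reached the smallest p that 3 against 4 libraries allow here (exact permutation p = 0.0286).

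Replicate numbers did not pair the libraries. Same-numbered WT and double mutant libraries had correlations of 0.285, -0.07, -0.02 and 0.07 between their deviations. With the replicate number as a block, 0 genes were called between the double mutant and WT (474 at an unadjusted p under 0.05), 0 in the other E14.5 comparisons and 1 for the stage difference.

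Of the named genes' log2 fold changes under the settings other than leaving out 1 library, 1302 kept direction and side of the threshold, 85 newly passed it and 39 changed sign. Without surrogate variables, with edgeR without them, and with the 8 libraries alone, the changed values were -0.053, -0.086 and -0.062 for *Kat6b*, -0.28, -0.48 and -0.25 for *Flt3*, -0.079, -0.23 and -0.077 for *Aim2*, -0.29, -0.43 and -0.28 for *Notch1*, 0.22, 0.54 and 0.24 for *Zfpm1*, 0.47, 1.64 and 0.29 for *Hbb-y*, and 0.036, 0.15 and 0.017 for *Atf4*. In the first and second of these settings they were -0.044 and -0.22 for *Ifi203* and 0.037 and 0.27 for *Hdc*. With edgeR alone they were 0.88 for *Bmp2*, 0.50 for *Car1*, 0.98 for *Hba-x*, 0.14 for *Apoc1*, 0.11 for *Col3a1*, 0.18 for *Sesn2*, -0.14 for *Tnfrsf10b* and 0.00034 for *Junb*. With sample weights they were -0.051 for *Trf* and -0.11 for *Cdkn2c*, with genes detected as a covariate -0.25 for *Cish*, and with 6 surrogate variables 0.085 for *Hbb-y*. Against Kat6aE/E, *Bmp2* was at 0.53 with 2 surrogate variables and 1.77 with edgeR. Leaving out 1 library gave ranges that crossed 0 for *Flt3* (-0.043 to 0.49), *Aim2* (-0.13 to 0.41), *Tcf7* (-0.31 to 0.87), *Notch1* (-0.20 to 0.41), *Zfpm1* (-0.47 to 0.13), *Col3a1* (-1.64 to 1.17), *Tnfrsf10b* (-0.29 to 0.64) and *Junb* (-0.41 to 0.054), in each case without double mutant replicate 1, and for *Hbb-y* (-1.12 to 0.68) without WT replicate 4 or double mutant replicate 4.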
